A study of Mus musculus with 14 samples.

Results

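The 9 genes described here are Xcr1, Clec9a, Cd8a, Itgae, Batf3, Irf8, Cadm1, Wdfy4 and Naaa, known from the cross-presenting type of conventional dendritic cell called cDC1. They were listed by name, and all 9 had a row in each of 2 expression tables, among 17118 genes in the table of macrophages and monocytes and 24980 genes in the table of dendritic cells. The study sequenced RNA of cells sorted from mouse bone marrow. Macrophages (3 libraries) and monocytes (3 libraries) were taken at baseline, and dendritic cells came from mice given PAM3CSK4 (4 libraries) or vehicle alone (4 libraries). PAM3CSK4 is a lipopeptide agonist of the TLR1/2 pair of Toll-like receptors, and it was given as a single dose. The sorting protocol names mice with 1 GFP copy of Cx3cr1 (Cx3Cr1gfp/+) for all populations, whereas the series' design text calls the treated mice wildtype. Macrophages were sorted as GFP-negative, MHC class II-high, CD169-positive cells. Monocytes were sorted as GFP-high, CD115-positive cells with low or high Gr-1, and dendritic cells as GFP-high, MHC class II-high, CD11c-high cells. B220-positive cells were left out of every sort, and Gr-1-positive cells out of the macrophage and dendritic cell sorts. Dose, time after the dose, age, sex and number of mice are not given in the labels.

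cDC1 take up material from dead or infected cells and present its peptides on MHC class I to CD8 T cells, which is called cross-presentation. Their development depends on the transcription factors IRF8 and BATF3, and they read signals from T cells and NK cells through the chemokine receptor XCR1. Mature cDC1 lack CX3CR1 or carry little of it, and they are high in MHC class II and CD11c. None of the 9 genes encodes a marker used in these sorts.

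Levels are in CPM (reads scaled to a common library size, not divided by gene length), so a level compares libraries for 1 gene and not 1 gene with another. Going by the smallest step between values, 1 CPM stood for 28.2 to 75.2 reads or fragments. Tests used limma on log2(CPM + 1) across all genes, with Benjamini-Hochberg adjustment and a threshold of 0.05, and log2 changes are given with their standard error. In bulk libraries, fewer cells of a type and less RNA per cell cannot be told apart. Whether each library had its own mouse is not stated in the labels, and the p-values describe the spread of these libraries, which may be technical.

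At baseline, the libraries labelled macrophage held more RNA of 6 of the 9 cDC1 genes than monocytes. The summed level of the 9 genes overlapped, at 776 to 2170 CPM in macrophages and 664 to 1052 CPM in monocytes. Most of this sum was Wdfy4, Irf8 and Naaa in every library, so it says little about the other members. Of the 9 genes, 6 were higher in macrophages (Xcr1, Clec9a, Cd8a, Itgae, Cadm1 and Wdfy4) and 0 were lower in limma, where 20.2% of the 12188 genes tested passed, 12.8% as higher and 7.42% as lower. For these 6 genes every macrophage library lay above every monocyte library, as for 20.4% of all genes tested. At an unadjusted p under 0.05, 1 of the 9 was lower (Irf8), where 11.8% of all genes were. The median log2 change of the 9 genes was 2.27, and that of all genes tested was 0.10. Cd8a and Itgae reached the filter of 1 CPM in 3 macrophage libraries and 0 monocyte libraries. Xcr1 reached it in 3 and 1, and Cadm1 and Batf3 in 3 and 2. The filter asked for 3 libraries, so these genes could be tested only because they reached it in macrophages. With no filter on low values Xcr1, Cd8a, Itgae and Cadm1 passed as higher.

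Of the genes of surface proteins, Xcr1 (chromosome 9, 123852315 to 123862029, minus strand, in mm10) encodes the receptor of the chemokine XCL1. It was at 73.8, 148 and 29.1 CPM in macrophage replicates 1, 2 and 3, against 0.0885, 1.10 and 0.188 CPM in monocytes. Every macrophage library lay far above every monocyte library, with a mean of 83.5 ± 59.9 CPM in macrophages and 0.459 ± 0.558 CPM in monocytes (SD, n = 3 each). The log2 change was 5.64 ± 0.50 (SE), with adjusted p = 2.47e-05.

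Clec9a (chromosome 6, 129408862 to 129424764) encodes the lectin DNGR-1, which binds actin filaments exposed on dead cells. Its levels were 59.4, 161 and 28.3 CPM in macrophages and 17.7, 19.5 and 5.68 CPM in monocytes. The groups did not overlap, but the lowest macrophage library (28.3 CPM) was not far above the highest monocyte library (19.5 CPM). The log2 change was 2.27 ± 0.56, with adjusted p = 0.0127. This call was lost without macrophage replicate 1 (adjusted p = 0.0731), without macrophage replicate 2 (adjusted p = 0.0772) and when all genes were tested whatever their level (adjusted p = 0.0889).

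Cd8a (chromosome 6, 71373427 to 71379171), which encodes the CD8 alpha chain, is carried by cDC1 of lymphoid organs and by CD8 T cells. It was at 18.9, 16.2 and 6.36 CPM in macrophages and at 0.619, 0.521 and 0.0001 CPM in monocytes, where 0.0001 is the lowest value in the table. Its log2 change was 3.33 ± 0.40 (adjusted p = 0.000131), and the groups did not overlap. Itgae (chromosome 11, 73090583 to 73147449) encodes CD103, an integrin subunit of cDC1 of tissues and of some T cells that pairs with the beta 7 chain. It was at 12.9, 24.3 and 10.3 CPM in macrophages, against 0.248, 0.0001 and 0.863 CPM in monocytes. All macrophage libraries again lay above all monocyte libraries, with a log2 change of 3.58 ± 0.37 (adjusted p = 5.32e-05).

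Cadm1 (chromosome 9, 47530170 to 47853391) encodes a cell adhesion molecule that binds CRTAM on T cells and NK cells. It was at 40.2, 80.4 and 24.9 CPM in macrophages and at 5.14, 3.14 and 0.748 CPM in monocytes. The groups were well apart, with a log2 change of 3.64 ± 0.49 (adjusted p = 0.000281).

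**Figure D1:**
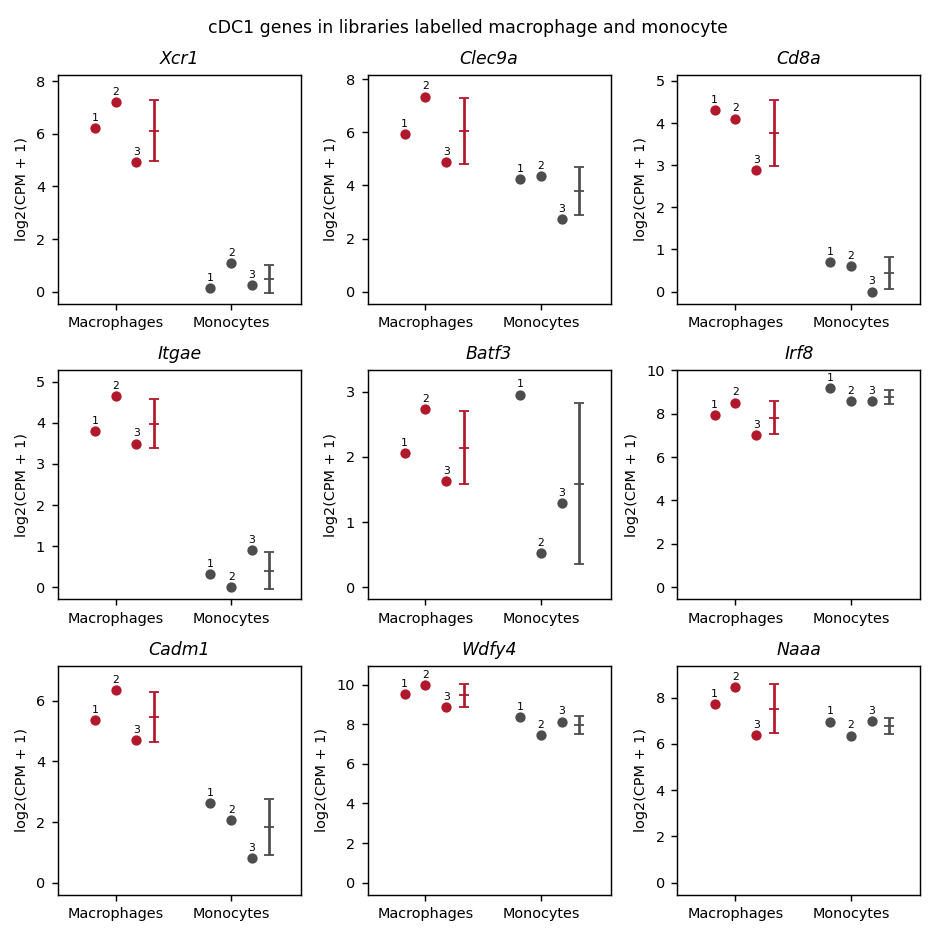
Levels of the 9 cDC1 genes as log2(CPM + 1) in each macrophage library (red) and monocyte library (grey), numbered by replicate, with the mean ± SD of the 3 libraries beside the points. Xcr1, Cd8a, Itgae and Cadm1 show the widest gaps, Irf8 lies lower in macrophages, and Batf3 and Naaa overlap between the groups.

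Of the genes of antigen handling, Wdfy4 (chromosome 14, 32959547 to 33185066, minus strand) encodes a BEACH domain protein that cDC1 need to cross-present antigen from cells. It was at 722, 1017 and 463 CPM in macrophages and at 324, 176 and 278 CPM in monocytes. The groups did not overlap, and the log2 change was 1.47 ± 0.34 (adjusted p = 0.00891). The call was lost without macrophage replicate 1 (adjusted p = 0.0537) and when all genes were tested (adjusted p = 0.0565). Naaa (chromosome 5, 92257660 to 92278181, minus strand) encodes a lysosomal acid amidase that breaks down fatty acid ethanolamides. It was at 209, 353 and 82.9 CPM in macrophages and at 123, 80.8 and 127 CPM in monocytes. Macrophage replicate 3 lay within the monocyte range, and the log2 change of 0.75 ± 0.43 did not pass (adjusted p = 0.272). Without that library it passed, at 1.32 (adjusted p = 0.0148).

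The transcription factor genes did not go with the surface genes. Irf8 (chromosome 8, 120736358 to 120756692), which encodes a factor of cDC1 that monocytes, plasmacytoid dendritic cells and B cells also use, was at 245, 366 and 128 CPM in macrophages. In monocytes it was at 574, 382 and 385 CPM. Each macrophage library lay below each monocyte library, as for 13.8% of all genes tested, but the log2 change of −0.96 ± 0.36 did not pass (adjusted p = 0.0879). Without macrophage replicate 2 it passed as lower, at −1.30 (adjusted p = 0.0377). Batf3 (chromosome 1, 191098414 to 191108943), which encodes an AP-1 family factor that cDC1 need, was at 3.17, 5.66 and 2.10 CPM in macrophages and at 6.76, 0.441 and 1.44 CPM in monocytes. Monocyte replicate 1 was the highest of the 6 libraries, and the log2 change was 0.55 ± 0.53 (adjusted p = 0.547). It was 1.24 without that monocyte library (adjusted p = 0.0403) and −0.10 after quantile normalization (adjusted p = 0.921).

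Among the macrophage libraries, replicate 3 had the lowest level of all 9 genes, and replicate 2 the highest of 8, all but Cd8a. How many of all genes tested had this order was not counted. Tlr3, which encodes a receptor for double-stranded RNA known from cDC1, had the same order. Its CPM was 0.786, 0.861 and 0.947 times that of Xcr1 in macrophage replicates 1, 2 and 3. For Clec9a the ratio to Xcr1 was 0.805, 1.09 and 0.974, which changed less between libraries than the level of Xcr1 did.

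The order differed for Cd3e, Cd8b1 and Jchain. Cd3e, which encodes a chain of the T cell receptor complex, was at 12.9, 5.94 and 10.3 CPM in macrophage replicates 1, 2 and 3, or 0.174, 0.0403 and 0.356 times the CPM of Xcr1. It was lowest in replicate 2, where Xcr1 was highest. Cd8b1, which encodes the CD8 beta chain of T cells, was at 4.40, 0.880 and 1.01 CPM. Jchain, which encodes the joining chain of antibodies made by plasma cells, was at 2029, 397 and 6891 CPM, highest in the library where Xcr1 was lowest. The summed level of the T and NK cell genes was 411, 257 and 166 CPM, lowest in replicate 3 as for the cDC1 genes. Progenitor genes, at 1870, 1086 and 775 CPM, were also lowest there, so this was not confined to cDC1 genes. The B and plasma cell genes summed to 2431, 588 and 8644 CPM, and the neutrophil genes to 4030, 1677 and 1912 CPM. For erythroid genes the sums were 254.5, 244.2 and 979.1 CPM. Without macrophage replicate 3 the log2 change rose for Xcr1 (5.64 to 6.24). It also rose for the T and NK cell genes Il2rb (5.55 to 6.07) and Ncr1 (5.09 to 5.69), and fell for Jchain (8.93 to 7.95). Cd8a, like Cd3e and Cd8b1, was highest in replicate 1, and the part of T cells in its level was not tested.

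**Figure D2:**
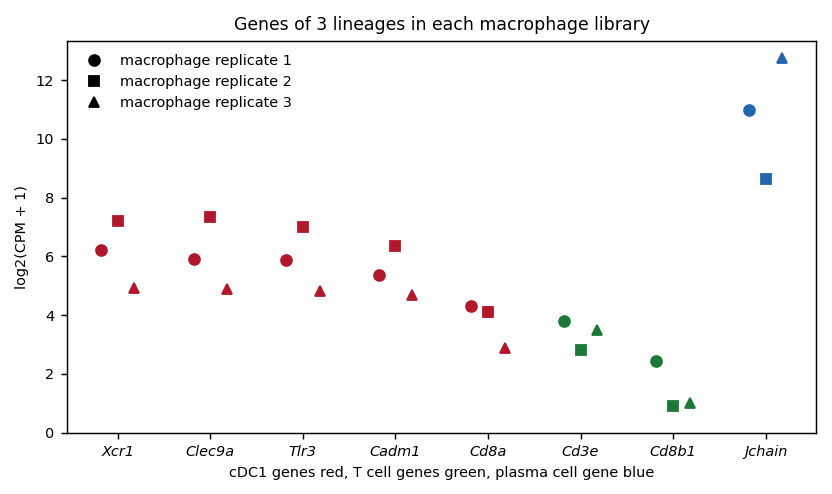
Levels as log2(CPM + 1) of genes of cDC1 (red), T cells (green) and plasma cells (blue) in macrophage replicates 1 (circles), 2 (squares) and 3 (triangles). Xcr1, Clec9a, Tlr3 and Cadm1 are highest in replicate 2 and lowest in replicate 3, whereas Jchain is highest in replicate 3 and Cd3e and Cd8b1 in replicate 1.

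Many other genes known from cDC1 were higher in macrophages, in a list chosen with earlier results of these data known. In this list, Id2 and Flt3 are also counted among the genes shared by conventional dendritic cells below, and Tap1 among the cross-presentation genes. Cd4 stands in both the cDC2 and the T and NK cell lists below. Of 25 tested genes of this list of 26, 18 were higher and 1 was lower, where 12.8% and 7.42% of all genes tested were. The median log2 change was 2.07. Of the 18, 5 reached 1 CPM in 0 monocyte libraries (Tlr3 and Gcsam among them) and so were tested only through macrophages. Tested with no filter, 14 of all 26 were higher and 1 was lower. With 1 library left out in turn, 14 to 20 were higher. Tlr3 was at 58.0, 127 and 27.5 CPM in macrophages and at 0.884, 0.581 and 0.356 CPM in monocytes. Its log2 change was 5.23 ± 0.45 (adjusted p = 2.36e-05). Hepacam2 (an adhesion molecule of the immunoglobulin family) was at 29.0 ± 10.3 CPM in macrophages and 0.50 ± 0.563 CPM in monocytes. Gcsam (a signalling protein of germinal centre B cells) was at 28.7 ± 18.4 and 0.134 ± 0.153 CPM in the same order of groups, and Ly75 (the endocytic receptor DEC-205) at 37.1 ± 9.12 and 3.74 ± 0.579 CPM. The gene that was lower was Nfil3, a transcription factor needed for cDC1 development, with a log2 change of −1.89 (adjusted p = 0.000357).

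Genes of other dendritic cells were less uniform. Of the higher genes in this paragraph, 1 known from cDC2 and 1 from plasmacytoid dendritic cells reached 1 CPM in 0 monocyte libraries. Of 11 tested genes shared by conventional dendritic cells, 3 were higher in macrophages and 0 were lower, with 6 higher at an unadjusted p under 0.05. They were Id2 (an inhibitor of helix-loop-helix factors, log2 change 2.07 ± 0.35), Cd83 (a maturation marker, 2.57 ± 0.62) and Zbtb46 (a factor of conventional dendritic cells, 1.82 ± 0.51). The count was 1 without macrophage replicate 1 or 2, 2 without monocyte replicate 3 and 6 without macrophage replicate 3 or monocyte replicate 1. Of 6 libraries left out in turn, the call of Cd83 held in 4 cases (adjusted p up to 0.0731) and that of Zbtb46 in 2 (adjusted p up to 0.147). Of 12 genes known from cDC2, the other conventional type, 2 were higher and 7 lower, with Klf4 (−3.47 ± 0.25), Zeb2 (−2.18 ± 0.24) and Cd209a (−4.21 ± 0.56) among the lower ones. Of 10 genes known from plasmacytoid dendritic cells, 4 were higher and 1 was lower. Among the higher ones were Ccr9 (log2 change 3.04 ± 0.42), Dntt (2.65 ± 0.48) and Ly6d (2.99 ± 0.63). The lower one was Siglech, a surface lectin, at 0.744 ± 0.436 CPM in macrophages and 5.94 ± 3.26 CPM in monocytes.

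Of 21 genes of the cross-presentation machinery, 2 were higher in macrophages and 1 was lower, where 12.8% and 7.42% of all genes tested were. The median log2 change of 0.05 was near that of all genes. Cybb, the oxidase subunit that keeps the phagosome less acidic, was at 154 ± 79.0 CPM in macrophages and 795 ± 116 CPM in monocytes (log2 change −2.49 ± 0.36, adjusted p = 0.000446). Tap2 (a subunit of the peptide transporter, log2 change 1.01 ± 0.28) and Psmb9 (an immunoproteasome subunit, 0.83 ± 0.27) were higher. When each of the 6 libraries was left out in turn, the call of Tap2 held in 2 cases and that of Psmb9 in 1.

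Markers of other cell types also moved with the macrophage label, and their part in the cDC1 gene levels was not tested. Of 15 T and NK cell genes 14 were higher, of 11 B and plasma cell genes 10, of 11 erythroid genes 11, of 12 progenitor genes 10 and of 13 neutrophil genes 8, with 4 neutrophil genes lower. Of the higher ones, 9 T and NK cell genes, 7 B and plasma cell genes, 1 erythroid gene and 1 progenitor gene reached 1 CPM in 0 monocyte libraries and so were tested only through macrophages. The summed level of the T and NK cell list was 166 to 411 CPM in macrophages and 12.1 to 29.7 CPM in monocytes, and that of the B and plasma cell list was 587 to 8640 and 113 to 132 CPM. For erythroid genes it was 244 to 979 and 11.6 to 82.8 CPM, for progenitor genes 775 to 1870 and 222 to 560 CPM, and for neutrophil genes 1680 to 4030 and 2380 to 3440 CPM. In macrophages 0 genes of these 5 lists were at the lowest value in any library. In at least 1 monocyte library 5 T and NK cell genes, 6 B and plasma cell genes, 3 erythroid genes, 1 progenitor gene (Mecom) and 1 neutrophil gene (Ly6g) were, and Gzmb was in all 3. With 1 library left out, the number of higher genes was 5 to 11 for the erythroid list and 5 to 13 for the resident macrophage list. Of 13 monocyte genes 11 were lower and 0 higher in macrophages.

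The macrophage label itself had mixed marker values. Of 16 resident macrophage genes 7 were higher and 1 was lower in macrophages (of the 7, 1 reached 1 CPM in 0 monocyte libraries), with Vcam1 (an adhesion molecule, log2 change 2.22 ± 0.34) and Slc40a1 (an iron exporter, 2.82 ± 0.42) among the higher ones. Adgre1, which encodes the macrophage antigen F4/80, was at 16.2, 22.9 and 32.7 CPM in macrophages and at 93.9, 42.6 and 60.0 CPM in monocytes, and it was the gene that was lower (adjusted p = 0.0106, and up to 0.0726 with 1 library left out). Siglec1, which encodes the sorting marker CD169, was at 18.9, 18.6 and 25.2 CPM in macrophages and at 34.7, 2.20 and 14.1 CPM in monocytes and did not pass (adjusted p = 0.422).

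The 250 bases before the start of 3 genes that were higher together in macrophages are shown, so that their promoters can be set side by side. They are from RefSeq (GRCm38.p6), written 5′ to 3′ on the strand of the gene: chr9:123862030-123862279 (minus strand) for Xcr1, chr6:129408612-129408861 (plus strand) for Clec9a and chr6:71373177-71373426 (plus strand) for Cd8a. Capitals mark matches, on either strand, to a form of the composite site of ETS and IRF factors, GGAA and GAAA with 2 bases between them.
Xcr1: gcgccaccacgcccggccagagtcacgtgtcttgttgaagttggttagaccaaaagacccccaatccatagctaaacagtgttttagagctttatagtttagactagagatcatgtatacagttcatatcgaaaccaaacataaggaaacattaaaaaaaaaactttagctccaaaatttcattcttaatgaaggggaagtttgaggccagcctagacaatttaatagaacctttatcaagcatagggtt
Clec9a: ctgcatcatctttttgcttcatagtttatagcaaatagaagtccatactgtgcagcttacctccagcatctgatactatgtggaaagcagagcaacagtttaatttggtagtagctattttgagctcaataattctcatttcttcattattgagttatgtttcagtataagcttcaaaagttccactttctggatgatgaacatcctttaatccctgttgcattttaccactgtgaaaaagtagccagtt
Cd8a: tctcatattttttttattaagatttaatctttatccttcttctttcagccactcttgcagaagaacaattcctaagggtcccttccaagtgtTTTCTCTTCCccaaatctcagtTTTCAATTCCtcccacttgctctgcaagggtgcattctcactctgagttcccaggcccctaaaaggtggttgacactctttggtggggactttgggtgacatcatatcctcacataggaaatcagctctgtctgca

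RefSeq windows were found for 7 of the 9 genes, in 8 windows with 2 for Irf8. The composite site was in 1 of the 8 (Cd8a, with 2 matches on the minus strand, at 149 to 158 and 127 to 136 bases before the start) and in 2.3% of all 32851 windows. A tandem IRF site, GAAA and GAAA with 2 bases between them, was in 0 of the 8 and in 2.98% of all windows. TGANTCA, a site of AP-1 factors, was in 0 of the 8 and in 6.75% of all windows. Both strands were searched, the composite and tandem sites can share bases, and a match or its lack says only what letters stand in these windows.

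In dendritic cells, 0 of the 8 cDC1 genes that could be tested passed limma after PAM3CSK4, where 5.12% of 11377 genes passed, 2.82% as higher and 2.29% as lower. At an unadjusted p under 0.05, 5 of the 8 were lower (Clec9a, Wdfy4, Batf3, Naaa and Xcr1) and 0 were higher, and 7.06% of all genes were lower at that p. The log2 change was below 0 for 7 of the 8, with a median of −0.98, and the median over all genes tested was 0.20. This result depends on the scaling. After median centring and after quantile normalization, which brought the median of all genes to −0.02 and 0.02, 4 of the 8 passed as lower (Clec9a, Batf3, Wdfy4 and Naaa), where 6.11% and 5.93% of all genes passed. After rescaling to a common total, 2 passed as lower (Wdfy4 and Naaa), where 5.87% of all genes passed.

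PAM3CSK4 replicate 4 had the lowest level of all 9 genes among the PAM3CSK4 libraries, and how many of all genes were lowest there was not counted. It held 27.5 CPM of Itgax, which encodes the sorting marker CD11c, against 181 to 283 CPM in the other PAM3CSK4 libraries and 170 to 271 CPM with vehicle. The summed level of the 14 neutrophil genes was 11840 CPM in that library, against 658 to 1633 CPM in the other PAM3CSK4 libraries and 598 to 1055 CPM with vehicle. H2-Ab1, which encodes an MHC class II chain, was at 948, 995, 1401 and 194 CPM in PAM3CSK4 replicates 1 to 4. With vehicle it was at 1878 to 3155 CPM. The summed level of the 16 resident macrophage genes was 2935 CPM in PAM3CSK4 replicate 2. It was 566 to 1199 CPM in the other PAM3CSK4 libraries and 1258 to 2049 CPM with vehicle. The part of these differences in the cDC1 gene levels was not tested. Without PAM3CSK4 replicate 4 the log2 change was −0.60 for Xcr1 (adjusted p = 0.361), −0.65 for Naaa (0.179) and −0.78 for Wdfy4 (0.0779). For Batf3 it was −0.98 (adjusted p = 0.0915) and for Irf8 −0.24 (0.732), each of these changes smaller than with all libraries. Results without that library for Clec9a, Cd8a, Itgae and Cadm1 are given below.

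Clec9a had the largest log2 change of the 8. It was at 17.7, 6.67, 9.54 and 0.830 CPM in PAM3CSK4 replicates 1 to 4, against 26.7, 29.4, 40.0 and 20.9 CPM in vehicle replicates 1 to 4. Each PAM3CSK4 library lay below each vehicle library, as for 4.68% of all genes tested. The log2 change of −2.02 ± 0.55 missed the threshold (adjusted p = 0.0559). Without PAM3CSK4 replicate 4 it passed, at −1.36 (adjusted p = 0.0180), and without PAM3CSK4 replicate 1 it passed as well, at −2.48 (adjusted p = 0.0141). With a pseudocount of 5 CPM in place of 1 it was −1.45 and passed (adjusted p = 0.0393).

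Xcr1 was low in dendritic cells. It was at 2.40, 3.86, 4.86 and 0.230 CPM with PAM3CSK4 and at 2.15, 7.07, 9.63 and 7.76 CPM with vehicle. Vehicle replicate 1 lay within the PAM3CSK4 range, and the log2 change of −1.08 ± 0.49 did not pass (adjusted p = 0.199).

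Wdfy4 was at 582, 385, 453 and 241 CPM with PAM3CSK4, against 618, 874, 800 and 958 CPM with vehicle. The groups did not overlap, although PAM3CSK4 replicate 1 and vehicle replicate 1 lay close together, and the log2 change was −1.02 ± 0.29 (adjusted p = 0.0632). It passed in 1 of the 8 cases with a library left out, without PAM3CSK4 replicate 1, at −1.20 (adjusted p = 0.0316). Naaa was at 82.4, 111, 92.4 and 42.4 CPM with PAM3CSK4 and at 90.9, 164, 161 and 206 CPM with vehicle. The groups overlapped through vehicle replicate 1, and the log2 change was −0.94 ± 0.33 (adjusted p = 0.112). In vehicle replicate 1 the values of all listed genes summed to 350368 CPM, against 442146 to 532242 CPM in the other dendritic cell libraries. After rescaling to a common total, Wdfy4 and Naaa both passed as lower.

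Of the transcription factor genes, Batf3 was at 5.36, 7.37, 8.92 and 2.53 CPM with PAM3CSK4 and at 16.1, 18.3, 7.59 and 21.9 CPM with vehicle. Of the vehicle libraries, replicate 3 lay within the PAM3CSK4 range, and the log2 change was −1.28 ± 0.37 (adjusted p = 0.0675). Irf8 was at 476, 161, 420 and 149 CPM with PAM3CSK4 and at 214, 416, 490 and 460 CPM with vehicle. The ranges largely overlapped, and the log2 change was −0.52 ± 0.41 (adjusted p = 0.453).

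Cd8a and Itgae, surface genes that T cells also carry, had higher means with PAM3CSK4. Cd8a was at 5.31, 5.31, 8.05 and 0.512 CPM with PAM3CSK4 and at 1.26, 1.72, 2.73 and 1.55 CPM with vehicle. Replicates 1, 2 and 3 with PAM3CSK4 lay above every vehicle library and replicate 4 below, so that the log2 change was 0.81 ± 0.47 (adjusted p = 0.300) with it and 1.36 (adjusted p = 0.00773) without it. Itgae was at 1.37, 2.70, 2.42 and 0.640 CPM with PAM3CSK4 and at 0.342, 0.565, 0.182 and 0.196 CPM with vehicle. Each PAM3CSK4 library lay above each vehicle library, as for 10.1% of all genes tested, but Itgae reached 1 CPM in 3 libraries where 4 were asked for, and so was not tested. With no filter its log2 change was 1.01 and did not pass (adjusted p = 0.205), and without PAM3CSK4 replicate 4, when 3 libraries were asked for, it was 1.24 (adjusted p = 0.0110). In that fit it was tested only through the 3 PAM3CSK4 libraries where it was high, since 0 vehicle libraries reached 1 CPM. Cd3e was at 1.09 ± 0.439 CPM with PAM3CSK4 and 2.38 ± 1.82 CPM with vehicle (SD, n = 4 each), with a log2 change of −0.55 ± 0.37 (adjusted p = 0.369). Of 8 tested T and NK cell genes 0 passed limma, with 0 higher and 1 lower at an unadjusted p under 0.05. Of 12 tested plasmacytoid dendritic cell genes, described below, 5 were higher and 1 was lower. The part of T cells or of plasmacytoid dendritic cells in the levels of Cd8a and Itgae was not tested.

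Cadm1 was at 32.1, 11.8, 29.5 and 2.69 CPM with PAM3CSK4 and at 12.2, 18.2, 36.3 and 17.1 CPM with vehicle. The groups overlapped, the log2 change was −0.46 ± 0.59 (adjusted p = 0.657), and it was 0.20 (adjusted p = 0.781) without PAM3CSK4 replicate 4. Without that library 3 of 9 genes passed, Cd8a and Itgae as higher (Itgae tested only through PAM3CSK4 libraries) and Clec9a as lower, where 6.83% of all genes passed. Without PAM3CSK4 replicate 1, 2 passed as lower (Clec9a and Wdfy4), where 8.72% of all genes passed.

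**Figure D3:**
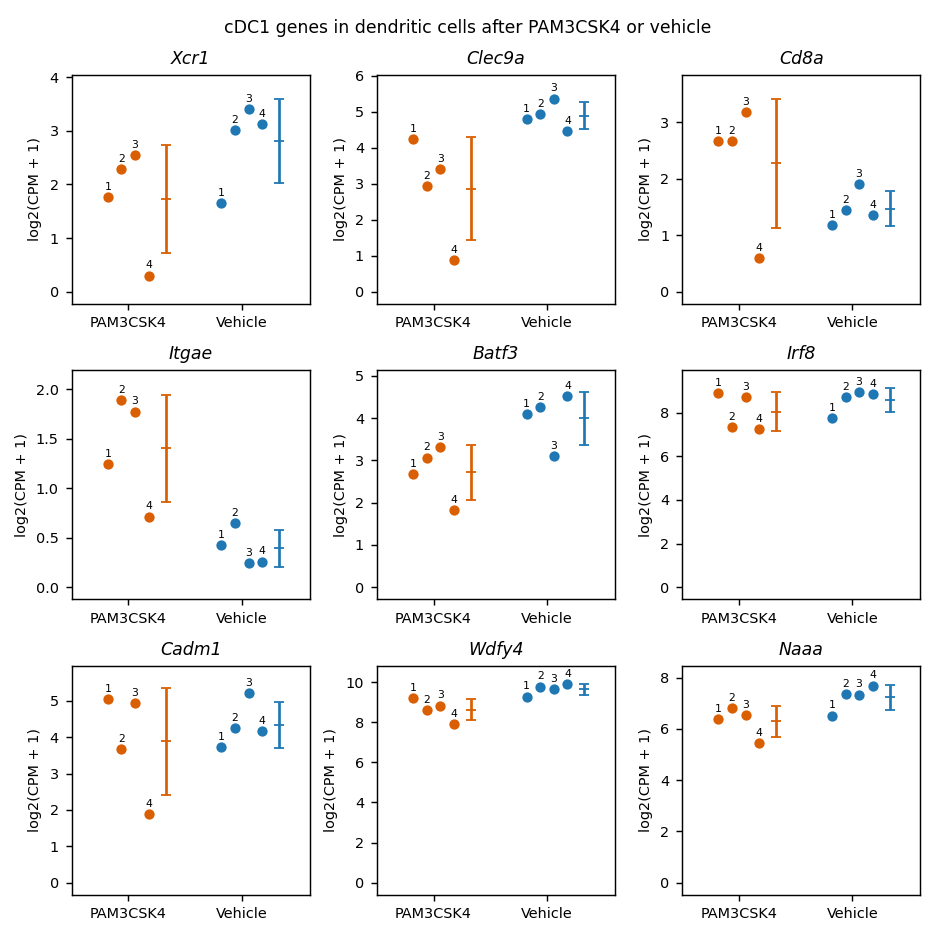
Levels of the 9 cDC1 genes as log2(CPM + 1) in each dendritic cell library after PAM3CSK4 (orange) or vehicle (blue), numbered by replicate, with the mean ± SD of the 4 libraries beside the points. PAM3CSK4 replicate 4 is the lowest PAM3CSK4 library in every panel, and the groups do not overlap for Clec9a, Wdfy4 and Itgae.

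**Figure D4:**
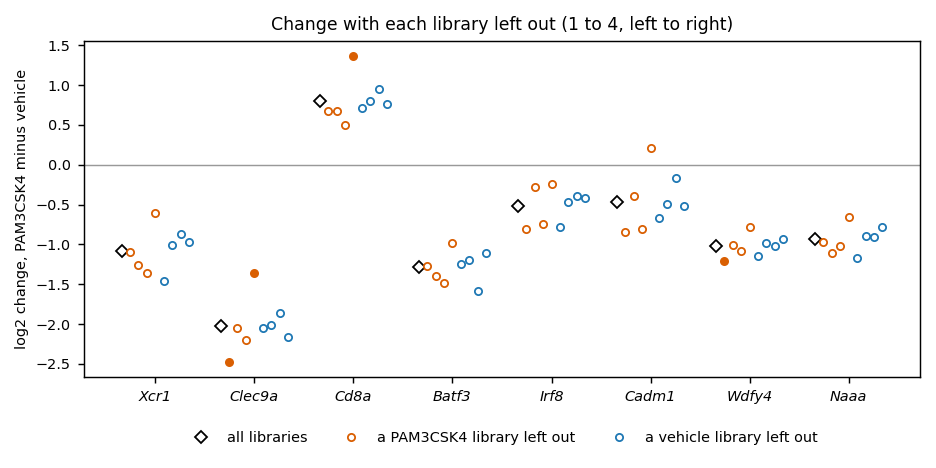
Log2 change (PAM3CSK4 minus vehicle) of the 8 tested cDC1 genes with all libraries (black diamonds), with each PAM3CSK4 library left out in turn (orange) and with each vehicle library left out in turn (blue), replicates 1 to 4 from left to right. Filled points have an adjusted p under 0.05, which holds for Clec9a without PAM3CSK4 replicates 1 or 4, Cd8a without replicate 4 and Wdfy4 without replicate 1.

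Of 25 other genes known from cDC1, 5 were lower after PAM3CSK4 and 0 were higher, where 2.29% and 2.82% of all genes tested were. At an unadjusted p under 0.05, 10 were lower and 2 higher, where 7.06% of all genes were lower. The median log2 change was −0.58. The 5 were 2 without vehicle replicate 2 or 3 and 3 without PAM3CSK4 replicate 3 or vehicle replicate 1 or 4. Hepacam2 was at 0.167 ± 0.238 CPM with PAM3CSK4 and 8.10 ± 3.49 CPM with vehicle (SD, n = 4 each), a log2 change of −2.90 ± 0.30 (adjusted p = 0.000386). It reached 1 CPM in 0 PAM3CSK4 libraries and 4 vehicle libraries, so it was tested only through vehicle. Tlr11, which encodes a receptor for the protein profilin of parasites, was at 3.62 ± 2.43 and 20.6 ± 4.38 CPM in the same order of groups (log2 change −2.39 ± 0.40). Tlr3 was at 3.67, 3.08, 3.59 and 0.448 CPM with PAM3CSK4 and at 7.33, 13.2, 20.7 and 10.5 CPM with vehicle, without overlap. Its log2 change was −1.97 ± 0.41 (adjusted p = 0.0197). When each of the 8 libraries was left out in turn, Hepacam2 and Tlr11 passed in all 8 cases and Tlr3 in 6. Gcsam (−1.66 ± 0.40) and Itgb7 (the beta 7 integrin chain, −1.50) passed in 2 cases each.

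In the wider dendritic cell lists, Zbtb46 was lower and was the 1 gene of 12 shared by conventional dendritic cells that passed. It was at 9.49 ± 6.45 CPM with PAM3CSK4 and 28.1 ± 4.02 CPM with vehicle (adjusted p = 0.0313), and the call held with 2 of the 8 libraries left out in turn. Of 12 cDC2 genes 5 were lower and 1 was higher, led by Cd209a (log2 change −7.12 ± 0.54), so lower levels were not confined to cDC1 genes. Of 12 plasmacytoid dendritic cell genes 5 were higher and 1 was lower, where 2 of the 5 reached 1 CPM in 0 vehicle libraries and the lower one in 0 PAM3CSK4 libraries. Ly6d (log2 change 3.94 ± 0.64), Dntt (2.04 ± 0.39) and Cox6a2 (2.08 ± 0.44) were among the higher ones. The lower one was Cd209d (−3.24 ± 0.24, adjusted p = 3.71e-05). In this list, Siglech was at 84.8, 18.7, 66.4 and 4.83 CPM with PAM3CSK4 and at 1.39, 5.61, 2.62 and 4.45 CPM with vehicle. Its call (log2 change 2.76 ± 0.70, adjusted p = 0.0424) held in 1 of the 8 cases with a library left out, and 1 to 7 genes of that list were higher in those cases. Of 21 genes of the cross-presentation machinery 0 passed limma, where 5.12% of all genes passed. At an unadjusted p under 0.05, 4 were higher and 0 lower, and the share of all genes higher at that p is not reported here. Beside these, 2 of 13 neutrophil genes, 3 of 9 erythroid genes and 2 of 10 progenitor genes were higher and 0 of each lower, 3 of 15 resident macrophage genes were higher and 4 lower, 3 of 13 monocyte genes were lower, and 0 of 4 B and plasma cell genes passed. The summed levels of the erythroid list were 99.8 to 1198 CPM with PAM3CSK4 and 28.7 to 227 CPM with vehicle. Those of the progenitor list were 90.1 to 302 and 87.9 to 114 CPM. With 1 library left out, 0 to 8 neutrophil, 0 to 7 erythroid and 0 to 3 progenitor genes were higher. The part of these cell types in the cDC1 gene levels was not tested.

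**Figure D5:**
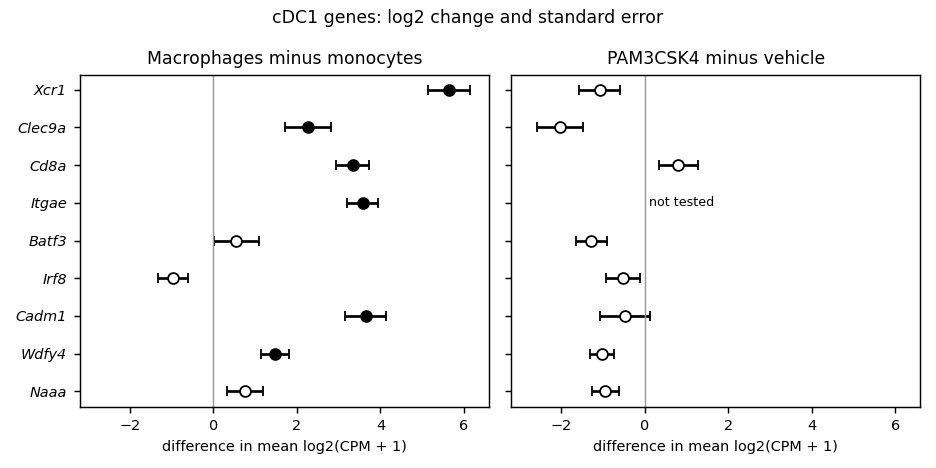
Log2 change of each cDC1 gene with its standard error, for macrophages minus monocytes (left) and PAM3CSK4 minus vehicle (right), on the log2(CPM + 1) scale. Filled points have an adjusted p under 0.05: 6 of 9 genes on the left and 0 of 8 on the right, where Itgae was not tested.

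Set side by side over the 4 groups, the genes did not share 1 order of levels. The tables were deposited separately and not joined in a fit, and whether they were normalized together is not known. In the macrophage and monocyte table, 3 columns named like dendritic cells matched no single sample by name. Macrophages and dendritic cells were therefore not tested against each other. Xcr1 averaged 83.5 CPM in macrophages, 2.84 CPM after PAM3CSK4, 6.65 CPM with vehicle and 0.459 CPM in monocytes. Each macrophage library lay above all others, while the other groups overlapped with their neighbours in the order. For Clec9a the means were 82.8 CPM in macrophages, 8.69 CPM after PAM3CSK4, 29.2 CPM with vehicle and 14.3 CPM in monocytes, and the ranges of macrophages and vehicle overlapped, while monocytes lay below vehicle. Cadm1 averaged 48.5 CPM in macrophages, 19.0 CPM after PAM3CSK4, 21.0 CPM with vehicle and 3.01 CPM in monocytes. Neighbours in that order all overlapped.

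Of the other genes, Wdfy4 and Batf3 had their highest mean with vehicle and Irf8 in monocytes, while Naaa, Cd8a and Itgae had theirs in macrophages. Wdfy4 averaged 734 CPM in macrophages, 415 CPM after PAM3CSK4, 813 CPM with vehicle and 259 CPM in monocytes, and neighbours in the order overlapped. Batf3 averaged 3.65 ± 1.83 CPM in macrophages, 6.04 ± 2.76 CPM after PAM3CSK4, 16.0 ± 6.09 CPM with vehicle and 2.88 ± 3.39 CPM in monocytes. Neighbours in the order overlapped. Irf8 averaged 246 CPM in macrophages, 301 CPM after PAM3CSK4, 395 CPM with vehicle and 447 CPM in monocytes, and neighbours in that order overlapped. Naaa averaged 215 CPM in macrophages, 81.9 CPM after PAM3CSK4, 156 CPM with vehicle and 110 CPM in monocytes, with overlap between neighbours. Cd8a averaged 13.8 CPM in macrophages, 4.79 CPM after PAM3CSK4, 1.81 CPM with vehicle and 0.380 CPM in monocytes. Itgae averaged 15.8 CPM in macrophages, 1.78 CPM after PAM3CSK4, 0.321 CPM with vehicle and 0.370 CPM in monocytes. For both genes monocytes and vehicle were the lowest groups, and macrophages overlapped with PAM3CSK4 for Cd8a but not for Itgae.

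The values of Cd8a and Itgae need care across the tables. Less the 0.0001 that the tables add, they were whole multiples of the smallest step of the library (within 0.05 steps) in 6 of 6 macrophage and monocyte libraries and in 0 of 8 dendritic cell libraries. Xcr1 and Batf3 were whole in 6 of 6 and 8 of 8, and Clec9a in 5 of 6 and 3 of 8. Over all genes, fewer low values were whole in the dendritic cell table (66.3% to 69.0% per library) than in the other (87.9% to 90.8%), and the cause was not tested. On the other strand Itgae overlaps Haspin, Cadm1 overlaps Gm10677 and Wdfy4 overlaps Lrrc18, and whether the counting used strand is not known from the sources at hand.

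By Pearson's r of log2(CPM + 1), taken over the 6 macrophage and monocyte libraries and over the 8 dendritic cell libraries, the genes most like Xcr1 among 10145 genes were Plce1, Fam149a, Fbxl17, Dapp1, Ifi205 and Dbn1. The smaller of their 2 r values was 0.976, 0.948, 0.924, 0.918, 0.900 and 0.899. The libraries of a table share their cell type or treatment, so r is a description only. Plce1, which encodes a phospholipase C, was at 7.28 ± 5.22 CPM in macrophages and 0.0314 ± 0.0541 CPM in monocytes. In dendritic cells it was at 0.614 ± 0.494 CPM after PAM3CSK4 and 1.04 ± 0.502 CPM with vehicle, near the filter of 1 CPM. Fbxl17 did not pass limma for macrophages against monocytes (adjusted p = 0.0708) or for PAM3CSK4 against vehicle (adjusted p = 0.433). Ifi205, a gene of the interferon-inducible p200 family and a member of the list of other cDC1 genes, was at 53.5 ± 37.4 CPM in macrophages and 6.38 ± 4.13 CPM in monocytes. Of the other cDC1 genes described here, Wdfy4 ranked 39th, Clec9a 69th, Cadm1 87th, Naaa 222nd, Cd8a 941st, Batf3 982nd, Itgae 3484th and Irf8 6693rd. For Itgae r was 0.971 in the first table and −0.161 in the second, and for Irf8 it was −0.553 and 0.721.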

How the data were processed

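Bulk RNA was sequenced from 14 libraries. The submitters' processing notes name STAR 2.5.3a, Partek and the build mm10, without their roles. The authors deposited values under the name FPKM, but the low values of a library are mostly whole multiples of 1 step shared by all genes (66.3% to 90.8% of values up to 50 steps within 0.05 steps, against at most 11.5% with a step 7% longer). This held for short and long genes: 76.3% to 80.1% for the shortest genes and 57.6% to 60.9% for the longest in dendritic cells, 86.0% to 89.8% and 90.9% to 93.1% in the other table. The deposited values were therefore treated as CPM. Too few are whole to recover reads, so no count test was made, and the test written for the deposited name was kept.

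Groups come from the labels. Each table was fitted alone with limma 3.58.1 (R 4.3.3; lmFit, eBayes with trend) on log2(CPM + 1). Tests were two-sided, and p-values were adjusted by Benjamini-Hochberg over the genes that reached 1 CPM in at least 3 libraries (macrophages against monocytes) or 4 (dendritic cells). The code was tested on simulated data. A log2 change on this scale understates the change of low genes. A further 3 columns of the macrophage and monocyte table, named like dendritic cells, match no single sample by name. They were not used, so dendritic cells were not tested against macrophages. Coordinates are the files' own, with 1 taken off the end, which then equals the RefSeq end for 67.4% of matched genes.

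The members and lists were chosen with earlier results of these data known. Named genes are the 9 members, up to 4 genes of every other list by smallest unadjusted p, the cell type genes Cd3e, Cd8b1 and Siglech, and the 6 genes most like Xcr1; 1 further gene of the rule is not reported here. Nfil3, Itgb7, Adgre1, Siglec1, Itgax and H2-Ab1 were named after their values were seen. Alternatives changed the pseudocount, filter, scaling, replicate block, trend and libraries.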

Additional observations from a re-analysis of the deposited data

How the results depend on the processing

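For macrophages against monocytes, 6 of the 9 cDC1 genes passed under every other setting tried except with no filter on low values, where 4 did, and 4 to 7 passed with 1 library left out. The number of all genes passing was 1671 to 2878 under other settings and 1699 to 3364 with 1 library left out. Batf3 changed sign after quantile normalization (−0.105).

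For PAM3CSK4 against vehicle, the number of cDC1 genes passing was 0 with all libraries, 1 with a pseudocount of 5 CPM, 2 after rescaling to a common total, 4 after median centring, 4 after quantile normalization and 0 to 3 with 1 library left out. The number of all genes passing was 582, and 184 to 1008 with 1 library left out. It was 32 with no filter on low values. Leaving out the genes with the same value in every library from that setting, a choice made after seeing the data, gave 166 genes and 0 cDC1 genes here, and 2471 genes and 6 cDC1 genes for macrophages against monocytes. Cadm1 changed sign without PAM3CSK4 replicate 4 (−0.851 to 0.204 with 1 library left out). The causes were not tested.

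Replicate numbers were not taken to pair the libraries: same-numbered libraries correlated in their deviations at 0.183, 0.0836 and 0.115 for macrophages and monocytes and at 0.0332, 0.29, −0.115 and 0.3 for dendritic cells. With a replicate block, 2609 genes and 6 cDC1 genes passed in the first comparison, and 976 genes and 1 cDC1 gene (Clec9a, adjusted p = 0.0245) in the second. Low values rest on few reads: Xcr1 lay at 5, 55 and 10 steps in monocyte replicates 1, 2 and 3. How small a difference between values that low could be detected at this depth was not tested.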
